A study of Bos taurus with 36 samples.

Results

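The 10 genes described here code for ligands, receptors and junction proteins of blood and lymph vessels, namely VEGFA, ANGPT1, ANGPT2, KDR, FLT1, FLT4, TEK, TIE1, PECAM1 and CDH5. They were found by matching the Entrez identifiers of the count table to bovine RefSeq symbols, and all 10 were present among its 35092 genes. Read counts were available for the heart (9 libraries), the gonads (9) and the liver (8) of 10 male bovine fetuses recovered on Day 42 of gestation, and for the blood of the 10 heifers that carried them. Of the 10 fetuses, 5 grew from a Day 7 embryo placed in a recipient on Day 7 of her cycle (ET_D7, synchronous) and 5 from a Day 7 embryo placed in a recipient on Day 9 (ET_D9, asynchronous). The fetuses are numbered 1 to 10 here in order of weight, from 1.253 to 1.69 g. Every ET_D9 fetus (1.396 to 1.69 g) was heavier than every ET_D7 fetus (1.253 to 1.37 g), so that weight and transfer group cannot be told apart. The heart of fetus 7, the gonads of fetus 2 and the livers of fetuses 6 and 7 were not analysed here.

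Vascular endothelial growth factor A, the product of VEGFA, is released by many tissues and drives the growth of new capillaries through its receptor KDR on endothelial cells, while the receptor FLT1 binds the same ligand and largely acts as a decoy, and FLT4 receives VEGFC and VEGFD in lymphatic and some blood capillaries. The angiopoietins act on the receptor TEK (TIE2), with ANGPT1 as the stabilising ligand and ANGPT2 as its context-dependent antagonist, and TIE1 is a partner of TEK without a ligand of the same kind. CDH5 (VE-cadherin) and PECAM1 hold endothelial cells together at their borders. PECAM1 is carried by platelets and leukocytes as well.

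Total counts ranged from 18231089 to 39649051 over the 26 organ libraries and from 26602415 to 40812354 over the 10 blood libraries. The mitochondrially encoded share of a library was 17.1% to 57.3% for hearts, 16.3% to 36.8% for livers and 3.31% to 7.23% for gonads. Hepatocyte markers were higher in the liver and cardiomyocyte markers in the heart, but the libraries labelled gonads carried little of the 6 Sertoli cell markers measured (summed level 4.15 to 15.4 CPM, that is counts per 1e+06 of the library, against 12.9 to 19.8 in the heart) and much of the 7 nephron markers (352 to 464, against 11.7 to 21.3 in the heart). The gonads lie against the mesonephros at this stage, and the part of that tissue in the gonad values was not tested. In the liver, 333 genes had at most 2 counts in some libraries and at least 300 in all the others, a pattern found for 1 heart gene, 1 gonad gene and 2 genes of maternal blood. None of the 10 vascular genes was among the 333.

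Levels are given as CPM after TMM scaling over the 26 organ libraries, with the lowest, the median and the highest library of each organ. Each gene was compared between organs with edgeR's quasi-likelihood test, adjusted over the 25095 genes with a count in any organ library, and was called at an adjusted p under 0.05. All the organs were bulk samples, in which fewer endothelial cells and less RNA per cell cannot be told apart. Levels are compared between organs and not between genes, since no transcript lengths were at hand.

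Of the ligands, VEGFA was highest in the heart and ANGPT1 in gonads. VEGFA ranged from 62.2 to 151 CPM in the heart (median 110), from 57.7 to 90.1 in gonads (median 71.4) and from 28.4 to 68.2 in the liver (median 49.4). The 3 ranges overlapped, and the mean was 107 ± 31.8 CPM in the heart (SD, n = 9), 69.9 ± 10.4 in gonads (n = 9) and 49.3 ± 11.2 in the liver (n = 8). It was 1.53-fold higher in the heart than in gonads (log2 fold change 0.61, SE 0.16, adjusted p = 0.0021) and 2.16-fold higher than in the liver (1.11, SE 0.17, adjusted p = 1.52e-06). The difference between gonads and liver was smaller (log2 fold change 0.50, SE 0.16, adjusted p = 0.0092), and its adjusted p was 0.0591 with upper-quartile scaling. ANGPT1 ranged from 18.7 to 34.8 CPM in gonads (median 23.6), from 7.01 to 20.2 in the heart (median 12.9) and from 7.12 to 14.4 in the liver (median 8.39). All gonad libraries lay above all liver libraries, whereas heart and gonads overlapped only between 18.7 and 20.2 CPM. ANGPT1 was lower in the heart than in gonads by 0.78 on the log2 scale (log2 fold change -0.78, SE 0.19, adjusted p = 0.00101) and 2.54-fold higher in gonads than in the liver (1.35, SE 0.20, adjusted p = 9.56e-07). Its excess in the heart over the liver (0.57, SE 0.19, adjusted p = 0.0142) lost the call with DESeq2 (0.39, adjusted p = 0.0685), with upper-quartile scaling (0.37, adjusted p = 0.0866) and without fetus 8 (0.48, adjusted p = 0.0572).

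ANGPT2 had 0 counts in all 36 libraries, maternal blood included. In the annotation used here it lies wholly inside the gene MCPH1. Of 577 named protein-coding genes that lie wholly inside another gene, 381 (66%) had 0 counts in all libraries, against 990 of 12149 (8.15%) without any overlap. TIMP1 inside SYN1 and TIMP3 inside SYN3, tissue inhibitors of metalloproteinases with wide expression, were at 0 in the same way, but so were the widely expressed TPI1, NFKBIA and NUP62, which lie inside no other gene. Why ANGPT2 has no counts was not tested. ANGPT2 is listed at 0 in these counts, with no level or limit given for it, and it was left out of every comparison, which covered 9 of the 10 genes.

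Among the VEGF receptors, KDR was at like levels in heart and gonads and lower in the liver, FLT1 followed the order heart, gonads, liver, and FLT4 was highest in the liver. KDR ranged from 56.1 to 71.2 CPM in the heart (median 66.4), from 50.9 to 89.4 in gonads (median 73.1) and from 22.5 to 40.6 in the liver (median 29.5). Every liver library was below every heart and gonad library. The log2 fold change of KDR in the heart against the gonads was -0.20 (SE 0.12, adjusted p = 0.174), which did not pass the test, while it was 2.07-fold higher in the heart than in the liver (adjusted p = 2.82e-08) and 2.38-fold higher in gonads than in the liver (adjusted p = 9.45e-10). FLT1 ranged from 26.1 to 31.9 CPM in the heart, the narrowest spread of the 9 genes there (coefficient of variation 7.67%), from 14.1 to 18.4 in gonads and from 5.83 to 17.7 in the liver. Heart libraries stood above all others, whereas gonads and liver overlapped because the liver of fetus 3 (17.7 CPM) lay within the gonad range, the other 7 being at 13.4 or below. FLT1 was 1.83-fold higher in the heart than in gonads (log2 fold change 0.87, SE 0.16, adjusted p = 3.38e-05) and 1.56-fold higher in gonads than in the liver (0.64, SE 0.16, adjusted p = 0.00126).

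FLT4 went the other way. It ranged from 16.4 to 29.1 CPM in the liver (median 22.1), from 7.89 to 11.4 in gonads (median 9.96) and from 7.25 to 11.4 in the heart (median 9.26). All 8 liver libraries were above all 18 heart and gonad libraries. The liver level was 2.38-fold that of the heart (log2 fold change of heart against liver -1.25, SE 0.13, adjusted p = 4.54e-09) and 2.22-fold that of the gonads (-1.15, SE 0.13, adjusted p = 1.67e-08). Heart and gonads did not differ beyond their spread in FLT4 (log2 fold change -0.10, SE 0.13, adjusted p = 0.559).

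The angiopoietin receptor TEK and its partner TIE1 were both highest in the heart. TEK ranged from 40.9 to 97 CPM in the heart (median 67), from 19.9 to 35.8 in gonads (median 29.9) and from 11.6 to 18.8 in the liver (median 16.8), and no range touched another. It was 2.39-fold higher in the heart than in gonads (log2 fold change 1.26, SE 0.14, adjusted p = 2.54e-08) and 1.80-fold higher in gonads than in the liver (0.85, SE 0.15, adjusted p = 1.42e-05). TIE1 ranged from 37.7 to 71.7 CPM in the heart (median 58.5), from 11.7 to 22 in gonads (median 16.6) and from 4.52 to 16.9 in the liver (median 8.38). Its heart values stood clear of the rest, and gonads and liver overlapped. TIE1 was 3.34-fold higher in the heart than in gonads (1.74, SE 0.18, adjusted p = 4.81e-09), the largest difference between these organs among the 9 genes, and 5.90-fold higher in the heart than in the liver (2.56, SE 0.20, adjusted p = 4.71e-12).

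The junctional genes were highest in the heart and lowest in the liver. PECAM1 ranged from 32.3 to 95.1 CPM in the heart (median 50.1), from 21.4 to 34.5 in gonads (median 29) and from 4.61 to 12.6 in the liver (median 6.62). CDH5 ranged from 23.7 to 65.9 CPM in the heart (median 39.4), from 14.6 to 28.9 in gonads (median 26.2) and from 3.17 to 9.48 in the liver (median 6.99). For both genes the liver lay below all other libraries, and heart and gonads overlapped at the lower end of the heart. PECAM1 was 7.36-fold higher in the heart than in the liver (log2 fold change 2.88, SE 0.22, adjusted p = 2.97e-12), and CDH5 was 5.69-fold higher (2.51, SE 0.20, adjusted p = 1.05e-11). In the gonads they were 4.09-fold and 3.45-fold above the liver (adjusted p = 1.7e-09 and 5.06e-09). Heart exceeded gonads 1.80-fold for PECAM1 (adjusted p = 0.000576) and 1.65-fold for CDH5 (adjusted p = 0.00153). PECAM1 shares 9.32% of its annotated span with the genes MILR1 and LOC112442686.

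**Figure D1:**
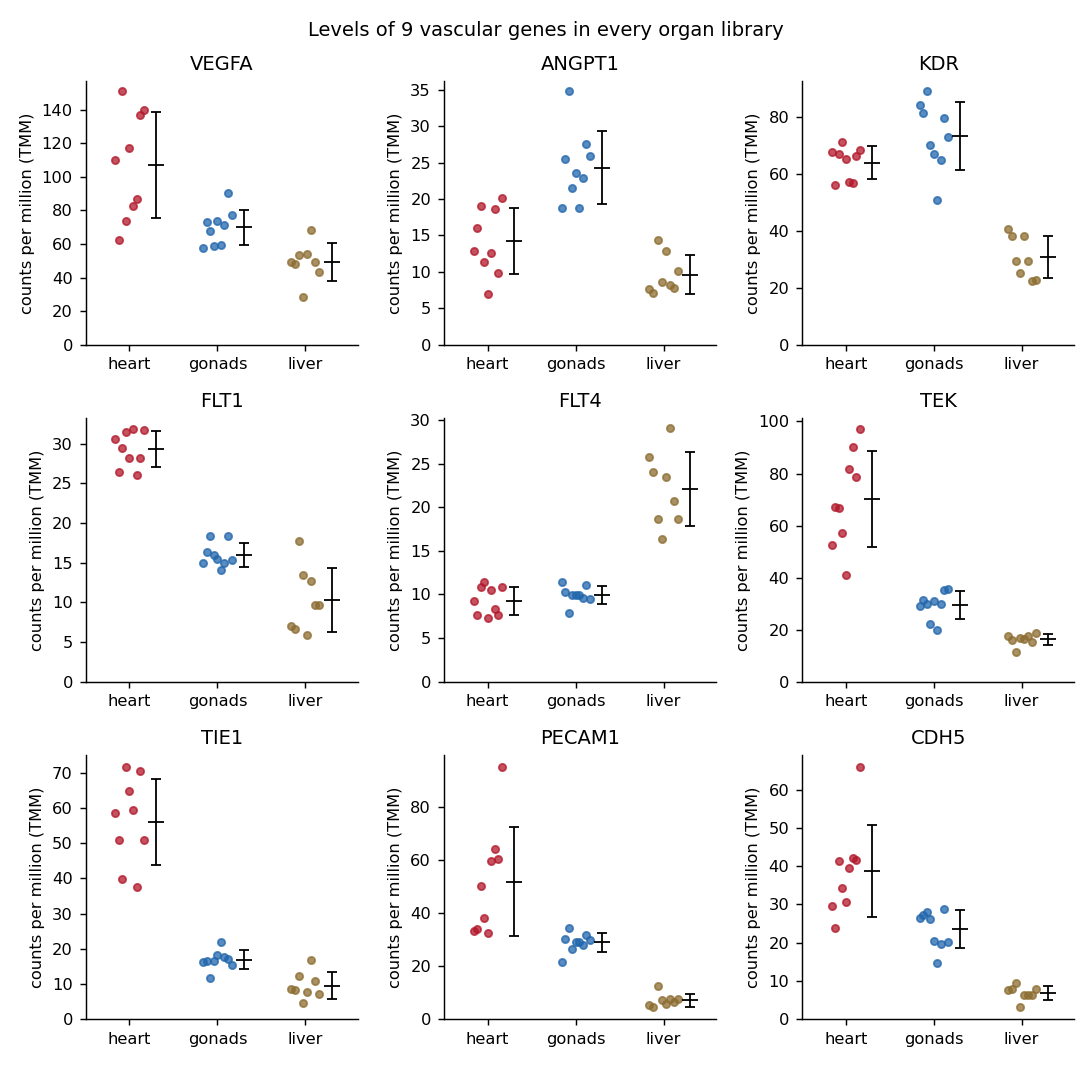
Level of each of the 9 measured genes in every organ library (points, in CPM after TMM scaling, linear axis from 0) with the mean and SD of each organ beside them (heart n = 9, gonads n = 9, liver n = 8). All 8 liver values of FLT4 (16.4 to 29.1) lie above those of the other organs, and the liver values of PECAM1 and CDH5 lie below them.

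In all, 6 of the 9 genes were higher in the heart than in gonads, 1 was lower and 2 did not pass, where 23.5% of all genes tested were higher and 23.1% lower. Against the liver, 8 of 9 were higher in the heart and 1 was lower, with 27.9% of all genes higher and 30.7% lower. The gonads exceeded the liver for 8 of 9 genes and fell below it for 1, with 30.8% of all genes higher and 33.6% lower. The order heart above gonads above liver, with all 3 contrasts called, was seen for 6 of the 9 (VEGFA, FLT1, TEK, TIE1, PECAM1 and CDH5) and for 4.12% of all genes. Ranges without overlap were found for 3 genes above the gonads in the heart (11.6% of all genes), for 6 above the liver in the heart (13.5%) and for 5 above the liver in gonads (16.3%). The liver lay wholly above the heart for 1 gene (12.4%) and above the gonads for the same 1 (14.7%), FLT4. The median log2 fold change of the 9 genes was 0.72 for heart against gonads, 1.51 for heart against liver and 0.85 for gonads against liver, beside -0.08, 0 and 0 over all genes tested. Without the 4 heart libraries that had over 40% mitochondrial counts, or with the mitochondrial genes left out, the counts of genes called higher and lower stayed within 1.5 times of these. The former choice was made after seeing the data.

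**Figure D2:**
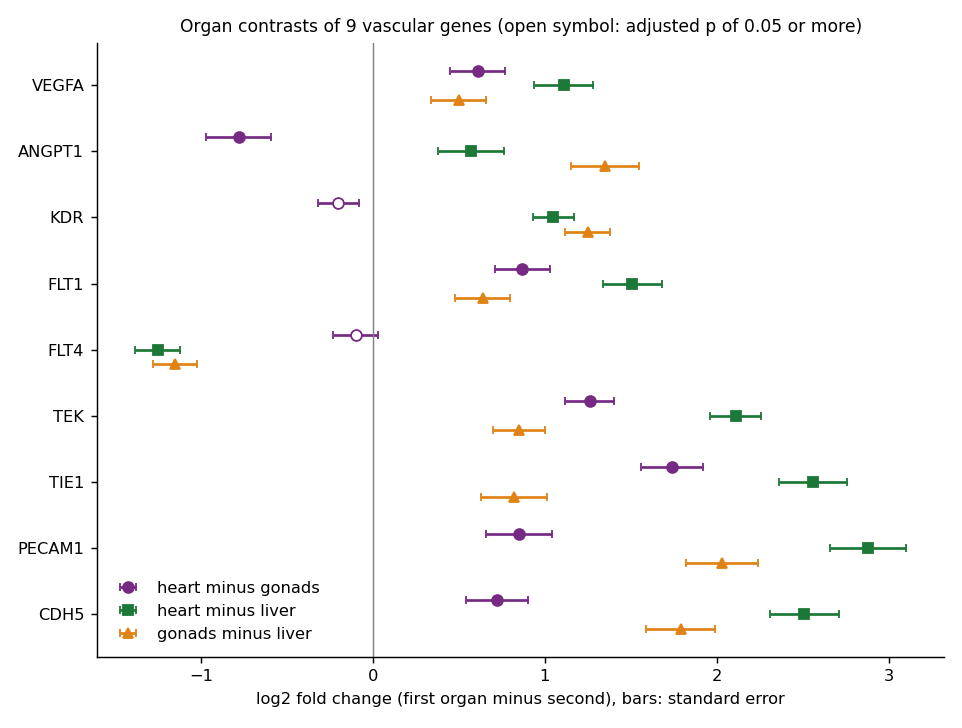
Log2 fold change of the 9 genes in the 3 organ contrasts (symbols, first organ minus second) with the standard error of edgeR's fit. FLT4 alone lies left of 0 against the liver (-1.25 and -1.15), ANGPT1 is lower in the heart than in gonads (-0.78), and the open symbols of KDR and FLT4 (-0.20 and -0.10) are those that did not pass the test.

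To describe the receptors and ligands per amount of junctional message, each was set against the mean log2 CPM of CDH5 and PECAM1 in the same library, with no test. On this log2 ratio scale FLT4 stood at 1.71 ± 0.46 in the liver (SD, n = 8), at -1.38 ± 0.28 in gonads and at -2.22 ± 0.43 in the heart (n = 9 each), so that every liver lay above the other organs, and heart and gonads overlapped. KDR rose in the order heart (0.58 ± 0.48), gonads (1.5 ± 0.15) and liver (2.18 ± 0.52), the reverse of the order of CDH5 itself. ANGPT1 followed the same order, from -1.66 ± 0.49 in the heart to -0.10 ± 0.16 in gonads and 0.48 ± 0.32 in the liver, with no overlap among the 3 organs. VEGFA was at 1.27 ± 0.47 in the heart, 1.43 ± 0.20 in gonads and 2.85 ± 0.35 in the liver, where every library exceeded those of the other organs. FLT1, TEK and TIE1, lowest in the liver by CPM, also had their highest mean ratio there (0.54, 1.28 and 0.41). Their means were -0.54, 0.67 and 0.36 in the heart and -0.69, 0.17 and -0.63 in gonads. The denominator is shared by all these ratios and was lowest in the liver, so a high liver ratio was not particular to any of the genes. The ratio of KDR to FLT1 was 2.18 ± 0.18 in gonads and 1.12 ± 0.12 in the heart, without overlap, and spread from 0.73 to 2.72 in the liver. In the liver the denominators were low (45 to 195 counts for CDH5 and 97 to 214 for PECAM1), and the ratio of PECAM1 to CDH5 varied there with an SD of 0.59, against 0.22 in the heart.

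**Figure D3:**
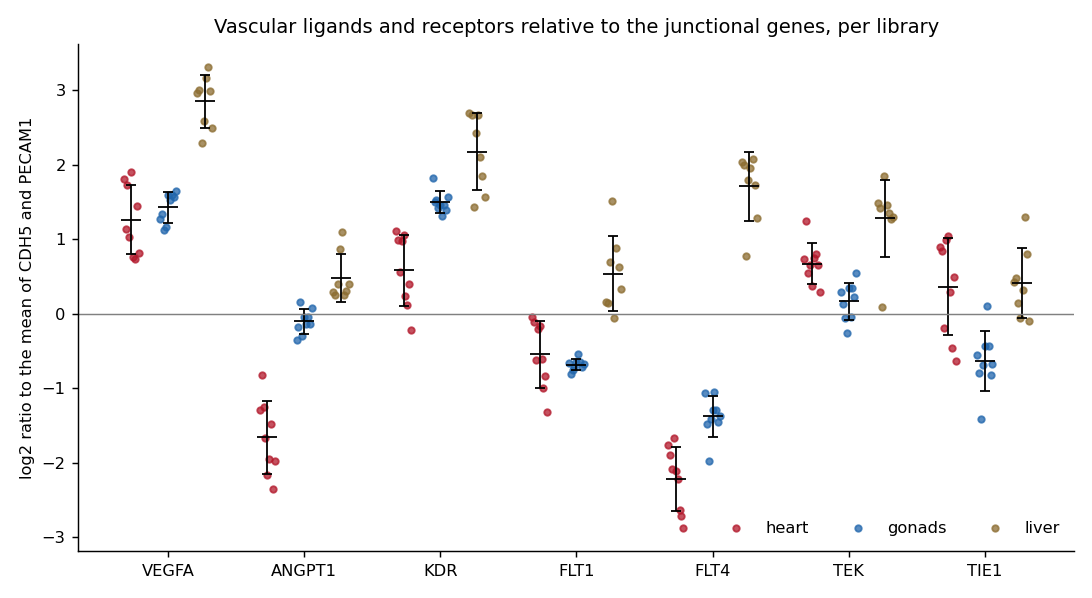
Log2 ratio of each ligand and receptor to the mean of CDH5 and PECAM1 in the same library (points), with mean and SD per organ. The liver lies wholly above the other organs for VEGFA (2.29 to 3.32), FLT4 (0.77 to 2.09) and ANGPT1 (0.25 to 1.1). Its mean is also the highest for KDR (2.18), FLT1 (0.54), TEK (1.28) and TIE1 (0.41), with overlap. The heart lies lowest for ANGPT1 (-2.35 to -0.82), while for FLT4 the heart (-2.88 to -1.67) overlaps the gonads (-1.98 to -1.04).

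The genes did not move as a block between fetuses. Over the libraries of an organ, 26 of the 36 gene pairs had a positive Pearson correlation of log2 CPM in the heart (median 0.31), 25 in gonads (0.26) and 22 in the liver (0.12), values that describe 8 or 9 libraries sharing depth and composition and carry no test. PECAM1 and CDH5 went together in the heart (r = 0.93, n = 9) but hardly in gonads (0.04) or the liver (0.17). KDR and CDH5 went together in gonads (r = 0.91) but less in the heart (0.28) and the liver (0.30). Among 12065 genes with at least 10 counts in every organ library, those whose pattern was most like CDH5 in all 3 organs, by the mean of the 3 within-organ correlations, were OXNAD1 (0.926), GFM2 (0.926), TIMMDC1 (0.915), FAM135A (0.911), HERC3 (0.91), HSF2 (0.907), NUDT7 (0.902), ITPRID2 (0.902), ZNF22 (0.902) and NBEAL1 (0.90). None of these is in the vascular lists used here. The nearest listed endothelial gene was EMCN, an endothelial sialomucin (mean 0.832, rank 66), and the farthest was ENG, a co-receptor for TGF-beta family ligands in endothelium (-0.568, rank 11516).

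The other members of the VEGF and angiopoietin pathways were taken as a list of 27 genes. In the heart 14 were higher and 7 lower than in gonads, and 6 did not pass (median log2 fold change 0.76). These are 51.9% higher and 25.9% lower, beside 23.5% and 23.1% of all genes, so that the lower side was near the share of all genes. EGLN3, an oxygen-sensing prolyl hydroxylase, was 20.2-fold higher in the heart than in gonads (adjusted p = 1.1e-17), and VEGFB, a ligand of FLT1, was 4.54-fold higher (257 against 56.6 CPM, adjusted p = 6.07e-11). S1PR1, a receptor that tightens endothelial junctions, was 4.89-fold higher, and EPAS1, the hypoxia-inducible factor of endothelium, and ESM1, a product of sprouting tip cells, were 3.59-fold and 4.56-fold higher (adjusted p from 6.79e-08 to 0.000121). PGF, the placental growth factor that also binds FLT1, was 5.25-fold lower in the heart than in gonads (3.61 against 18.9 CPM, adjusted p = 1.77e-10).

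Against the liver, 16 of the 27 were higher in the heart, 3 were lower and 8 did not pass (median 1.2). In gonads 16 were higher, 9 lower and 2 did not pass (median 1.65). The heart shares were 59.3% higher and 11.1% lower, beside 27.9% and 30.7% of all genes. Those of the gonads were 59.3% and 33.3%, beside 30.8% and 33.6%, the lower side again near the share of all genes. The heart exceeded the liver in S1PR1 (13-fold), EFNB2, an arterial ephrin (11.9-fold), SVEP1 (9.59-fold), APLN (9.28-fold) and the repulsive ligand SEMA3A (8.55-fold), all with adjusted p of 0.000162 or lower. The gonads exceeded the liver in SEMA3A (7.51-fold), EFNB2 (6.76-fold), PGF (6.37-fold) and the VEGF co-receptor NRP2 (6.35-fold), and EPAS1 was 11.5-fold lower in gonads than in the liver (1.29 against 14.8 CPM, adjusted p = 3.25e-13). VEGFD, a ligand of FLT4, was called higher in the liver than in the other organs, but its liver counts were 356 and 334 in fetuses 3 and 4 and at most 1 in the other 6 libraries.

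Of 26 other pan-endothelial genes 25 were in the table, and unlike the junctional genes they went in either direction between gonads and liver. Their summed level was 972 to 1650 CPM in the heart, 376 to 490 in gonads and 995 to 1530 in the liver. The heart was higher than the gonads for 19 and lower for 1 (CALCRL, a receptor of adrenomedullin), and 5 did not pass (median log2 fold change 1.74). The heart was higher than the liver for 20, lower for 3, and 2 did not pass (median 1.92). Between gonads and liver the list divided, with 10 higher in gonads, 11 higher in the liver and 4 not passing (median 0.32). The shares higher and lower were 76% and 4% for heart against gonads, beside 23.5% and 23.1% of all genes. They were 80% and 12% for heart against liver (27.9% and 30.7%) and 40% and 44% for gonads against liver (30.8% and 33.6%). One of the 11, NOS3, was at 0 or 1 count in 3 of the 8 livers.

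The 3 genes lower in the heart than in the liver were VWF (24.5 against 103 CPM), CD34 (158 against 350) and ENG (179 against 276). The same genes were 44.1-fold, 11.5-fold and 11-fold lower in gonads than in the liver (adjusted p = 4.58e-20, 3.23e-17 and 5.16e-14), while EMCN was 9.65-fold higher in gonads (52.2 against 5.41 CPM, adjusted p = 2.22e-17) and CALCRL 8.28-fold higher (adjusted p = 1.58e-13). EMCN was also 19.6-fold higher in the heart than in the liver (adjusted p = 2.17e-19), followed by RAMP2, CD93, SOX7 and ECSCR (6.22-fold to 5.21-fold). SOX17, an arterial transcription factor, had 0 to 6 counts in the liver libraries, so that its 35.9-fold and 21.7-fold excess in heart and gonads rests on very few liver reads. VWF, EGFL7, ENG, SOX18, RASIP1 and CD34 led the heart over the gonads, from 10.5-fold down to 5.17-fold.

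**Figure D4:**
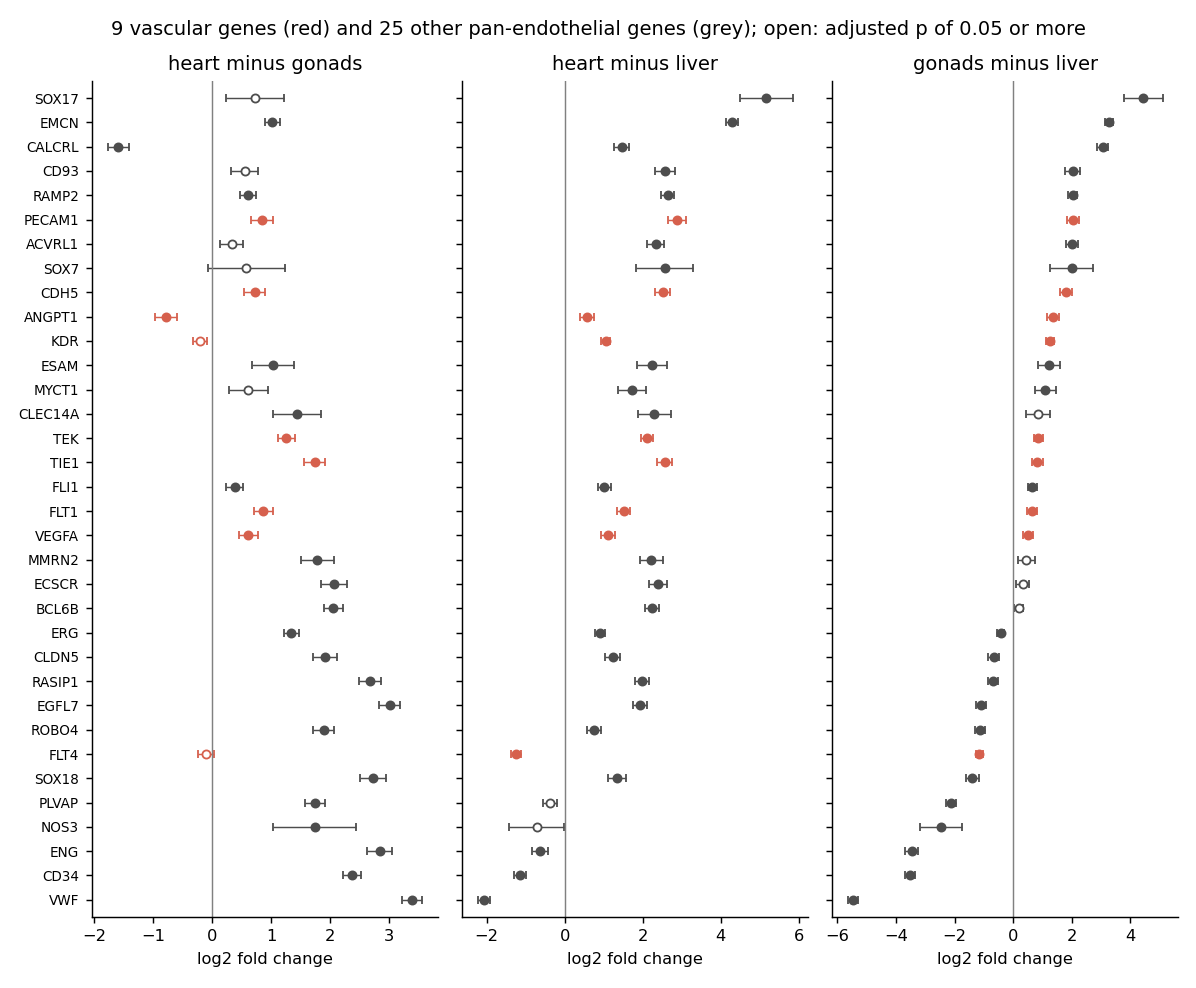
Log2 fold change with its standard error for the 9 vascular genes (red) and 25 other pan-endothelial genes (grey) in the 3 organ contrasts, sorted by the contrast of gonads against liver. That contrast runs from -5.46 (VWF) to 4.44 (SOX17), with FLT4 (-1.15) the only red point below 0, while nearly all genes lie above 0 for heart against gonads.

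VWF and CD34 are also carried by blood-forming cells. The 7 megakaryocyte and platelet genes measured were all higher in the liver than in either other organ (summed level 336 to 525 CPM in the liver, 18.1 to 45.1 in the heart and 6.84 to 13.4 in gonads), and so were the 7 erythroid genes (2940 to 4530, 74.2 to 191 and 23.4 to 69.6 CPM). The summed level of the 7 leukocyte genes was 64.9 to 113 CPM in the liver, 11.7 to 14.6 in the heart and 16.7 to 23.3 in gonads. Against each of the other organs, 5 of the 7 were higher in the liver and 2 did not pass. CD14 made up much of the liver sum (45.8 CPM on average, 1.11 in the heart and 0.657 in gonads). PTPRC, by contrast, averaged 2.86 CPM in the liver, 2.94 in the heart and 1.91 in gonads. The part of these cells in the liver values of VWF, CD34 and PECAM1 was not tested. Of 8 genes of liver sinusoidal endothelium, all 8 were lower in gonads than in the liver (median log2 fold change -3.59). In the heart 5 were lower than in the liver, 1 was higher and 2 did not pass (median -3.43). Of all genes, 33.6% were lower in gonads than in the liver and 30.7% were lower in the heart. The scavenger receptor STAB2 was at 76.7 CPM in the liver, 6.99 in gonads and 1.88 in the heart on average. Against the heart, STAB1 (89.8 CPM in the heart, 64.9 in the liver) and OIT3 (51.3 and 46.3) went the other way by their means. CLEC4G and FCGR2B were low in the liver too (0.495 and 1.05 CPM on average).

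The second question was whether these genes follow fetal weight within an organ. In the heart, PECAM1 and CDH5 rose with weight, and none of the 9 genes was called in gonads or the liver. Over the whole table, 0% of genes had a called slope in gonads and 2.23% in the liver. PECAM1 in the hearts of fetuses 1 to 5 (ET_D7) was 33.2, 33.9, 50.1, 38 and 32.3 CPM, and in those of fetuses 6, 8, 9 and 10 (ET_D9) it was 59.8, 64.1, 60.4 and 95.1 CPM. CDH5 was 29.7, 23.7, 41.4, 34.4 and 30.6 CPM in the former and 39.4, 42.1, 41.6 and 65.9 CPM in the latter. All 4 ET_D9 hearts had more PECAM1 than all 5 ET_D7 hearts, whereas for CDH5 fetus 3 lay among the ET_D9 hearts, and fetus 10 was highest for both. How many of all heart genes separate the transfer groups in this way was not counted. Between these groups 24.6% of all heart genes had an unadjusted p under 0.05 by edgeR. The slope was 0.29 log2 units per 0.1 g for PECAM1 (SE 0.058, adjusted p = 0.0395) and 0.21 for CDH5 (SE 0.051, adjusted p = 0.0432) by edgeR's quasi-likelihood test over 16250 genes. Of all genes tested in the heart, 6.77% had a called slope and 5.22% a rising one. At an unadjusted p under 0.05, TEK joined them, which made 3 rising, beside 16.4% of all genes rising and 29.1% in either direction.

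TEK in the hearts was 52.5, 67, 66.7, 57 and 40.9 CPM in fetuses 1 to 5 and 81.7, 90.3, 78.7 and 97 CPM in fetuses 6, 8, 9 and 10. The ET_D9 hearts were again all above the ET_D7 hearts, but the slope of 0.17 (SE 0.060) had an adjusted p of 0.097. DESeq2 called it (0.19, adjusted p = 0.0283), while 14 of 15 alternative fits did not. Over these 15 fits the TEK slope ran from 0.01 to 0.22, with adjusted p up to 0.973. It stayed between 0.15 and 0.2 when a fetus was left out. The other 6 genes had heart slopes between -0.01 and 0.10, with adjusted p of 0.408 or higher. In the ET_D9 hearts PECAM1 was higher than in the ET_D7 hearts by a log2 fold change of 0.90 (SE 0.18, adjusted p = 0.0637), TEK by 0.61 (SE 0.16, adjusted p = 0.0689) and CDH5 by 0.56 (SE 0.19, adjusted p = 0.111), none of which was called. Of all heart genes 0.0492% were called in this comparison, and 24.6% had an unadjusted p under 0.05. DESeq2 called all 3 of them (adjusted p = 0.000587, 0.00489 and 0.0456), and so did edgeR without fetus 3 (adjusted p = 0.0121, 0.0224 and 0.0316).

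The calls for PECAM1 and CDH5 in the heart were lost in many refits, together with those of all other genes. The count of 2 fell to 0 without fetus 1, 2, 4, 5, 8 or 10 and to 1 (PECAM1) without fetus 6, with slopes that stayed between 0.24 and 0.34 for PECAM1 and between 0.14 and 0.25 for CDH5. In the 6 refits that gave 0, no gene of the whole table was called, against 1100 with all 9 hearts, and without fetus 6 there were 625 rising and 133 falling. Without fetus 3 there were 2352 rising and 1595 falling. The share of mitochondrial counts fell over the same hearts, from 23.5% to 57.3% in the ET_D7 group to 17.1% to 39% in the ET_D9 group, and was lowest in fetus 10. With that share as a covariate, the slope was 0.17 for PECAM1 (adjusted p = 0.388) and 0.06 for CDH5 (adjusted p = 0.622). With the transfer group as a covariate, the slopes were 0.16 and 0.19 (adjusted p = 0.699 for both), and no gene of the whole table was called.

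**Figure D5:**
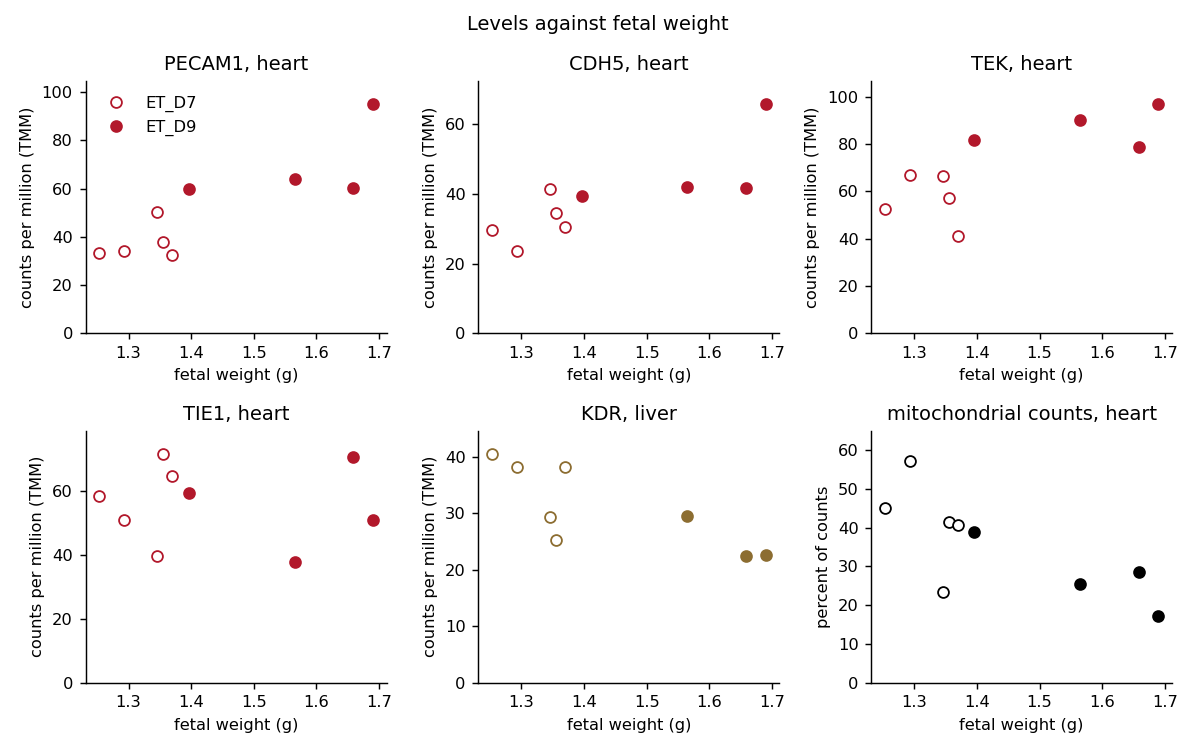
Level of PECAM1, CDH5, TEK and TIE1 in the heart and of KDR in the liver against fetal weight, one point per library (open ET_D7, filled ET_D9, linear axes from 0), with the mitochondrial share of the heart libraries. Fetus 10, the heaviest at 1.69 g, has the highest PECAM1 (95.1) and CDH5 (65.9) and the lowest mitochondrial share (17.1%), while the slope of TIE1 was -0.01.

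Other endothelial genes went in either direction with weight in the same hearts. Of the 25 pan-endothelial genes 6 were called and all 6 rose (24%, against 5.22% of all genes), namely MYCT1 (0.43 per 0.1 g), SOX7 (0.38), CD93 (0.25), ESAM, ECSCR (both 0.21) and EMCN (0.18). At an unadjusted p under 0.05, 8 of the list rose and 2 fell, the latter being ENG (-0.27, adjusted p = 0.109) and BCL6B (-0.21, adjusted p = 0.0783). At that level 16.4% of all heart genes rose and 29.1% passed in either direction. Only 1 of 26 tested pathway genes was called, the matrix protein THBS2, which rose by 0.21 per 0.1 g. The median slope of the pan-endothelial list was -0.01, near the -0.014 of all genes, and that of the 9 genes was 0.06. In the same hearts 0 of 6 cardiomyocyte markers, 0 of 10 pericyte and smooth muscle genes, 0 of 7 erythroid genes, 0 of 5 leukocyte genes and 0 of 4 platelet genes were called by edgeR. With 6.77% of all heart genes called, 0 in lists this short is near the share of all genes. Called and rising were 1 of 5 sinusoidal, 1 of 3 endocardial and 1 of 4 lymphatic endothelial genes tested. At an unadjusted p under 0.05, 4 of the pericyte and smooth muscle genes rose and 2 fell, and 1 platelet gene rose. The cardiomyocyte, erythroid and leukocyte lists had 0 at that level.

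In the liver KDR had the largest slope of the 9 genes, downwards, but it was not called. It was 40.6, 38.2, 29.4, 25.3 and 38.3 CPM in fetuses 1 to 5 (ET_D7) and 29.6, 22.5 and 22.6 CPM in fetuses 8, 9 and 10 (ET_D9). Fetuses 3 and 4 lay within the ET_D9 range, and the other ET_D7 livers above it. The slope was -0.19 log2 units per 0.1 g (SE 0.048, adjusted p = 0.0758) and the difference of ET_D9 from ET_D7 was -0.59 (SE 0.17, adjusted p = 0.0946), neither of them called, where 2.23% and 4.14% of all liver genes were. KDR was the 1 gene of the 9 with an unadjusted p under 0.05 in either comparison, beside 17.2% and 17.4% of all liver genes. Without fetus 4 both were called (slope -0.20, adjusted p = 0.0323, and difference -0.66, adjusted p = 0.0328), as they were with DESeq2 (adjusted p = 0.00503 and 0.0223). In the gonads slopes ran from -0.06 (CDH5) to 0.10 (VEGFA). With no adjustment, 0 of 9 had a p under 0.05 by edgeR, against 5.62% of all gonad genes. After adjustment edgeR called 0% of the 17809 genes tested in gonads, and DESeq2 called none of them either. The transfer groups likewise gave 0 of 9 in gonads, with or without adjustment, where 0.354% and 18.5% of all genes passed.

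A smooth curve of weight was fitted as well, closer to the model used in the study but with another threshold. The study kept genes at p < 0.05 in a negative binomial additive model, with no adjustment described, and then filtered them by co-expression. Here, at an adjusted p under 0.05, the curve called none of the genes in any tissue. It called 0% of all genes in heart and gonads, 1.81% in the liver and 0.129% in the heifers' blood. With no adjustment, at a p under 0.05 it picked PECAM1 and CDH5 in the heart, KDR in the liver and VEGFA in maternal blood, with adjusted p of 0.601, 0.601, 0.253 and 0.275, and 0 genes of the 9 in gonads. The share of all genes at that level was 7.99% for hearts, 12.6% for gonads, 17.9% for livers and 9.77% for blood. The slopes of 2 organs were then compared directly. The slope of CDH5 in the heart exceeded that in gonads by 0.28 (SE 0.10, adjusted p = 0.478) and that of PECAM1 by 0.24 (SE 0.11, adjusted p = 0.571). Against the liver the differences were 0.24 (SE 0.10, adjusted p = 0.155) for CDH5, 0.27 (SE 0.11, adjusted p = 0.122) for PECAM1 and 0.18 (SE 0.065, adjusted p = 0.0855) for KDR. No slope of the 9 genes was thus shown to differ between organs with all genes in the fit, while the difference for KDR was called without the mitochondrial genes (0.20, adjusted p = 0.0459). Of all genes, 8.94% differed between heart and liver, 5.01% between gonads and liver and 0% between heart and gonads. Without adjustment 3, 0 and 2 of the 9 genes had a p under 0.05 in these contrasts, beside 23.7%, 15.8% and 8.2% of all genes.

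Maternal blood was prepared with another library kit and was scaled by itself, so that its levels are not compared with those of the organs. PECAM1 was the most even of the genes there, from 39.2 to 49.1 CPM (43.8 ± 3.36, SD, n = 10). VEGFA ranged from 15.8 to 61.4 CPM and TIE1 from 5.03 to 10.2 CPM. KDR, FLT1, TEK, ANGPT1 and CDH5 stayed at or below 3.4 CPM in every heifer, and FLT4 had 0 counts in all 10. If each count is independent, this allows up to 0.113 CPM in the shallowest of them (3 counts, counting error only). Of blood counts from 1 to 6, 85.2% were even, so that the limit may be higher. Slopes against fetal weight ran from -0.23 (FLT1) to 0.21 (ANGPT1) per 0.1 g over the 8 genes tested, with adjusted p of 0.553 or higher, and no gene of the whole table was called. At an unadjusted p under 0.05, 0 of the 8 passed for slope (9.69% of all genes) and 0 for transfer group (7.6%).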

How the data were processed

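A sequencing company prepared the libraries (TruSeq stranded mRNA for organs, SMARTer stranded RNA for blood) and sequenced them, and the authors deposited raw read counts per Entrez gene, made per the submitters' notes and the study's methods with FastQC 0.11.9, Trimmomatic, STAR 2.7.0b on ARS-UCD1.3 and featureCounts (Subread 2.0.3); strand and overlap settings are not given in the sources used here. Of counts from 1 to 6, 61.5% to 85.2% were even by tissue, so a count may be a read, not a pair. Symbols came from RefSeq on another build, so no coordinates are printed. The genes and lists were chosen with earlier results of these data known.

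Counts were fitted with edgeR 4.0.16 (TMM, quasi-likelihood, Benjamini-Hochberg) in R 4.3.3. Organs were compared over 26 libraries and genes with any count, without a fetus block. Weight (linear, or a natural spline with 3 degrees of freedom), transfer group and differences of slopes used genes that reached 10 counts in 4 or more libraries. DESeq2 1.42.0 was an alternative. Named are all 10 genes, the 6 called list genes with the largest change per contrast, genes called in a list along weight, and the 10 genes most like CDH5. List genes named along weight, VEGFD, the named sinusoidal genes and NOS3 were chosen after their values were seen. Organs of a fetus come from 1 animal; median correlations of same-fetus deviations were 0.12, 0.02 and 0.05 for heart with gonads, heart with liver and gonads with liver. Simulated counts gave every gene the same dispersion (spread between libraries), which real counts do not have. On simulated heart counts (16250 genes), slopes of 0.4 per 0.1 g were recovered for 96% of changed genes and slopes of 0.2 for 17%. Differences of slopes between heart and gonads (14786 genes) were recovered for 40% at 0.4 and for 2% at 0.2. No libraries were identical (0 pairs). Nothing in the labels gives a batch or separates fetuses other than as animals.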

Additional observations from a re-analysis of the deposited data

Results flagged for a closer look

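In 35 groups of 8 to 10 libraries, the gap of the highest or lowest library to its neighbour was set against the whole range of log2 levels (Dixon's ratio). In 2 of the 35 it was flagged, which is near the share of about 1 in 20 groups that chance gives. TEK in the liver of fetus 3 was the lowest (11.6 CPM, next 15.1, ratio 0.551), and CDH5 in the liver of fetus 4 was the lowest (3.17 CPM, next 6.16, ratio 0.603). The latter rests on 45 counts. Leaving out either fetus kept the calls of both genes in the 3 organ contrasts.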

How the results depend on the processing

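With the fetus as a replicate block, which pairs organs of the same animal, no call of the organ comparison (6, 8 and 8 genes higher, 1 lower each) or of the differences of slopes (0) changed. When an absolute log2 fold change above 1 was asked for as well, the count fell to 2 higher and 0 lower in heart against gonads and to 4 higher in gonads against liver. Leaving out a fetus gave 6 to 6, 7 to 8 and 8 to 8 higher. Upper-quartile scaling moved the median log2 fold change of all genes to -0.16 for heart against liver and -0.15 for gonads against liver, and DESeq2 moved the latter to -0.27; the 9 genes kept their directions. For the heart slope the count of 2 became 3 with DESeq2 (TEK added) and 0 with the transfer group or the mitochondrial share as a covariate and without fetuses 9 and 10, and 0 to 2 when a fetus was left out. Among all heart genes, 1100 were called by edgeR, 2222 rising and 851 falling by DESeq2, and 0 with either covariate. For transfer group edgeR called 8 heart genes and DESeq2 1589 rising and 566 falling, and for the liver slope edgeR called 371 and DESeq2 420 rising and 1022 falling. DESeq2 called 1 gene for the smooth term in the heart and 1 in maternal blood, 3 for transfer group in the heart, and 1 for slope and 1 for transfer group in the liver. Leaving out a fetus gave 0 to 3 for transfer group in the heart and 0 to 1 for slope and for transfer group in the liver. The liver slope count was 1 with the mitochondrial share as a covariate, and the difference of slopes between heart and liver was called for 1 gene (KDR, 0.20, adjusted p = 0.0459) without mitochondrial genes. Where not stated, the cause was not tested. The organs had 8 or 9 libraries each. On simulated counts with the same dispersion for every gene, slopes of 0.2, and more so differences of slopes, mostly went uncalled. Among the real heart slopes, 0.21 (CDH5) and 0.18 (EMCN) were called and 0.17 (TEK) was not. What can be called depends on the spread of the gene, with heart slope SEs of 0.032 for FLT1, 0.034 for KDR and 0.051 for CDH5. Low liver counts of CDH5 and PECAM1 limit the ratios.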

Other observations

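Pericyte and smooth muscle genes mark the cells that wrap vessels. In the heart 7 of 10 were higher than in gonads (2 lower, 1 not passing, median log2 fold change 1.59). Against the liver 9 of 10 were higher in the heart (1 lower, median 2.47). Those higher made 70% and 90%, beside 23.5% and 27.9% of all genes. Those lower made 20% and 10%, beside 23.1% and 30.7%. PDGFRB, the receptor that recruits pericytes, was the 1 gene lower in the heart than in the liver, at 66.3 CPM in the heart, 82.4 in gonads and 124 in the liver. Of 3 endocardial genes, all 3 were higher in the heart than in gonads (median 2.4), beside 23.5% of all genes. Against the liver 2 were higher in the heart and 1 did not pass (median 2.8), beside 27.9% of all genes higher.

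NOS3, the endothelial nitric oxide synthase, had 509 to 1224 counts in the livers of all 5 ET_D7 fetuses and at most 1 in those of the 3 ET_D9 fetuses, while it was measured in heart and gonads at 15 and 4.48 CPM on average. It is 1 of 333 liver genes with such jumps, of which 33 split exactly by transfer group, and the cause was not tested.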
